A study of Mus musculus with 6 samples.

Results

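The genes described here are 37 epithelial genes: adhesion molecules, keratins, parts of tight junctions and desmosomes, regulators of epithelial identity, and membrane proteases with their inhibitors. They were chosen by name, with no measured value in the rule, although earlier results of these data were known when the list was drawn up. Of the 37, 33 were among the 17312 genes with values. The levels of Krt7, Krt14, Cldn4 and Ap1m2 were not analysed here, and only their promoter windows are counted. RNA had been sequenced from 6 leg tumors of mice, 3 from animals with a Cre-lox inducible allele of SS18-SSX1 and 3 from animals with one of SS18-SSX2. SS18-SSX1 and SS18-SSX2 are the fusion oncoproteins of human synovial sarcoma. All 6 tumors had been started by TATCre, a Cre protein that enters cells, injected into pre-tibial tissue of the leg. They were collected about 1 year later, with no other treatment, snap frozen, and their total RNA was depleted of ribosomal RNA before sequencing. The labels do not give the promoter that drives the alleles, the cell type that took up Cre, the age or sex of the mice, or the histology of each tumor. No tissue without a tumor was measured. Whether tumors of 1 genotype came from separate mice is not stated, so p-values reflect the spread of these samples alone, which may be technical.

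Epithelial cells are held together by cadherins, by tight junctions that seal the space between neighbours, and by desmosomes that anchor keratin filaments. Transcription factors of the Grainyhead-like and Ovo-like families and the splicing factors Esrp1 and Esrp2 keep this program active, while factors of the Snail and Zeb families repress it by binding the E-box CAGGTG. Synovial sarcoma occurs as monophasic tumors made of spindle cells and as biphasic tumors that also hold gland-like epithelial structures with keratin and EpCAM. The tumors are therefore described singly as well as by genotype.

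The stretches before the transcription start of 5 of these genes show how often the letters CAGGTG occur there. Windows from RefSeq on GRCm38.p6, running from 250 bases before to 50 bases after a start, existed for 25 of the 37 genes (30 windows, as some genes have more than 1 start). CAGGTG on either strand was present in 22 of the 30 windows (73.3%), against 6640 of all 32851 windows (20.2%). Counted by gene, 19 of 25 epithelial genes (76%) held it in at least 1 window, against 22.6% of the 27025 genes with a window. The Grainyhead motif AACNGGTT, where N is any base, was present on either strand in 2 of the 30 windows, those of Muc1 and Rab25 (6.67%), against 2.09% of all windows. The sequences below are the 250 bases before the start of Epcam, Lsr, Tjp3 and Spint2, which were among the most variable or most abundant of these genes, and of Cldn7, whose first start had no match. A second start of Cldn7, not printed, had 2 matches, 97 and 57 bases before it, so Cldn7 is among the 19 genes. Each printed stretch reads 5′ to 3′ on the gene's own strand, and capitals mark CAGGTG on either strand. They lie at chr17:87635729-87635978 (plus strand) for Epcam, chr7:30973470-30973719 (minus) for Lsr, chr10:81291582-81291831 (minus) for Tjp3, chr7:29281978-29282227 (minus) for Spint2 and chr11:69964529-69964778 (plus) for Cldn7.
Epcam: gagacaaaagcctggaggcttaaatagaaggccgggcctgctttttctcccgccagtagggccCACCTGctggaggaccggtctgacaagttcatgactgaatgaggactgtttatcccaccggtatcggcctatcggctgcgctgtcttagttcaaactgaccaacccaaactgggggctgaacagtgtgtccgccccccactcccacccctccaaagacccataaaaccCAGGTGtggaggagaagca
Lsr: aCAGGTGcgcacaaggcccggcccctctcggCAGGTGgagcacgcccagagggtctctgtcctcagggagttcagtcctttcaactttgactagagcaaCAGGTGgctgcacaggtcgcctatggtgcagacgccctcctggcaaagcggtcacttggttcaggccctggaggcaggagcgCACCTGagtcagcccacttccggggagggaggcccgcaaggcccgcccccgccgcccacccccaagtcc
Tjp3: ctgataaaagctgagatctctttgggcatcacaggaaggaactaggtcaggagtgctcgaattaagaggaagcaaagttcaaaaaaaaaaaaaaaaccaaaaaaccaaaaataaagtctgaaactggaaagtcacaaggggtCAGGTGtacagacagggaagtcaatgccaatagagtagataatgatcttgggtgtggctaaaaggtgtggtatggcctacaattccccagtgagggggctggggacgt
Spint2: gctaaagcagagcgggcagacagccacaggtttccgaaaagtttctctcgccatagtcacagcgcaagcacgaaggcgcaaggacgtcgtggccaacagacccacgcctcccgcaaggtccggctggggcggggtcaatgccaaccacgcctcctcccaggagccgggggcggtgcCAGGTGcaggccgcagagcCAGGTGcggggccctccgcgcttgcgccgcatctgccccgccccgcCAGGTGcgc
Cldn7: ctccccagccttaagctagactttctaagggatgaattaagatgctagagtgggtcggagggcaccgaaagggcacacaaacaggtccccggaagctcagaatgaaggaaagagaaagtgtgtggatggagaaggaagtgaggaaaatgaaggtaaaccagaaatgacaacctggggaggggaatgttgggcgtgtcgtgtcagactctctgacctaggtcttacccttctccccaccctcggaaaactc
The letters occurred 4 times in the Lsr stretch, 3 times in that of Spint2, 2 times in that of Epcam and 1 time in that of Tjp3. A match of letters is a description and not a binding site, and a window without one says nothing of the factor.

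Levels are given as FPKM, fragments scaled to transcript length and library size, and values for 6 tumors are always in the order SS18-SSX1 tumors 1, 2 and 3, then SS18-SSX2 tumors 1, 2 and 3. Between 7285853 and 17546227 reads stood behind a tumor, as inferred from the spacing of low values, and 1 read in a transcript of 1 kb was worth 0.057 to 0.137 FPKM. SS18-SSX2 tumor 2 was the shallowest. The tumors differed in the levels of marker genes of other cell types. Tumor 2 of each genotype was rich in skeletal muscle RNA: 22 muscle genes had a mean log2(FPKM + 1) of 7.41 (SS18-SSX1) and 6.32 (SS18-SSX2) there, and of 2.24 to 3.26 in the remaining 4 tumors. These 2 tumors are called muscle-rich below. Mast cell genes averaged 7.14 in SS18-SSX1 tumor 3 and 1.27 to 3.21 elsewhere. In bulk tissue, fewer cells of a type and less RNA per cell cannot be told apart.

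Epithelial genes were measured in every tumor, and the tested ones of the 33 spread more widely between tumors than the median tested gene. Of the 33 genes, 13 were at or above 1 FPKM in all 6 tumors, 10 reached 10 FPKM in at least 1 tumor, and only Jup and Spint2 stayed at or above 10 FPKM in all 6. The number at or above 1 FPKM was 24, 22 and 25 with SS18-SSX1 and 17, 27 and 19 with SS18-SSX2. Their mean log2(FPKM + 1) was 2.29, 1.75 and 2.00 with SS18-SSX1 and 1.39, 2.31 and 1.61 with SS18-SSX2. SS18-SSX2 tumor 2 and SS18-SSX1 tumor 1 thus stood highest and SS18-SSX2 tumor 1 lowest. The same mean over all 13873 genes that passed the filter on low values (1 FPKM or more in 3 tumors or more) lay between 3.38 and 3.49. The genotype means of the epithelial level were 2.01 ± 0.27 and 1.77 ± 0.48 (SD, n = 3 each), and the groups overlapped. Across the 25 epithelial genes that passed the filter, the median SD of log2(FPKM + 1) over the 6 tumors was 0.69, against 0.41 over all tested genes. It was 0.45 over the 26 tested genes of a wider epithelial list described below. Over the marker lists it ran from 0.34 (skin keratinocyte) to 2.66 (skeletal muscle), with 0.83 for endothelial and 1.0 for macrophage genes. Mesenchymal genes had 0.91. A wide spread was thus not particular to these epithelial genes, nor shared by the wider list.

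**Figure D1:**
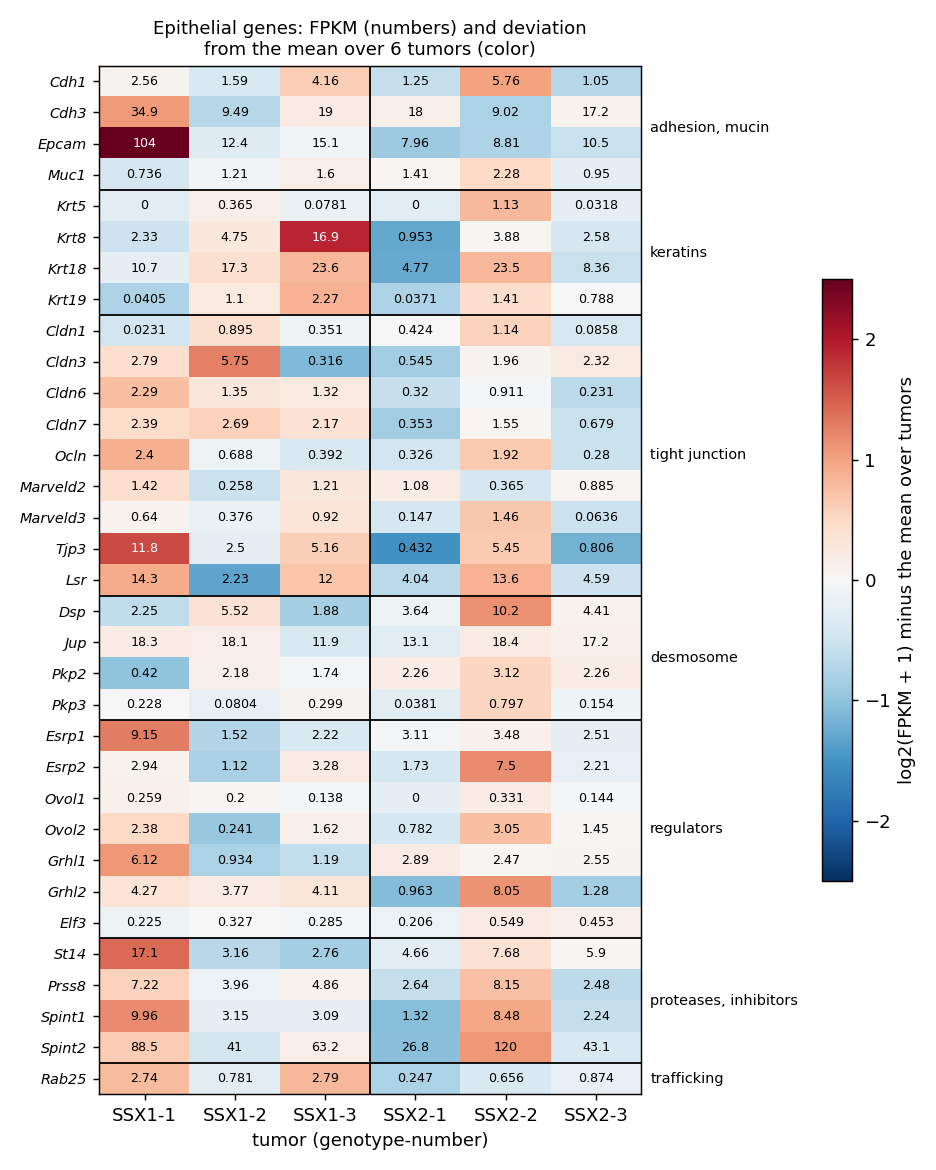
Level of each of the 33 epithelial genes in each of the 6 tumors. Columns are tumors, rows are genes grouped by role, numbers are FPKM, and color is log2(FPKM + 1) minus the gene's mean over the 6 tumors (red higher, blue lower). Red cells gather in SS18-SSX1 tumor 1 and SS18-SSX2 tumor 2, and blue cells in SS18-SSX2 tumor 1.

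Among the adhesion genes, Epcam and Cdh3 were above Cdh1 in every tumor. Epcam, the epithelial cell adhesion molecule (chromosome 17, 87635979 to 87651129), was at 104, 12.4 and 15.1 FPKM in the SS18-SSX1 tumors and at 7.96, 8.81 and 10.5 FPKM in the SS18-SSX2 tumors. SS18-SSX1 tumor 1 stood 6.86-fold above the next highest tumor, and the lowest SS18-SSX1 tumor was above the highest SS18-SSX2 tumor. Cdh1, which encodes E-cadherin (chromosome 8, 106603351 to 106670246), was at 2.56, 1.59 and 4.16 FPKM and at 1.25, 5.76 and 1.05 FPKM. It was highest in SS18-SSX2 tumor 2 and lowest in the other SS18-SSX2 tumors, so the genotypes overlapped fully. Cdh3, which encodes P-cadherin, was at 34.9, 9.49 and 19.0 FPKM and at 18.02, 9.02 and 17.2 FPKM. Cdh3 was lowest in the muscle-rich tumors, and its ratio to Cdh1 ran from 1.57 in SS18-SSX2 tumor 2 to 16.4 in SS18-SSX2 tumor 3. The ratio of Epcam to Cdh1 was 40.5, 7.80 and 3.64, then 6.38, 1.53 and 9.98, so that the tumor richest in Epcam was not the richest in E-cadherin. Muc1, a mucin of the apical membrane, was low throughout, at 0.736, 1.21 and 1.603 FPKM and at 1.41, 2.28 and 0.950 FPKM.

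The simple-epithelium keratins Krt8 and Krt18, which pair to form filaments, were the leading keratins. Krt18 (chromosome 15, 102028180 to 102032027) was at 10.7, 17.3 and 23.65 FPKM and at 4.77, 23.5 and 8.36 FPKM. Krt8 (chromosome 15, 101996698 to 102004482) was at 2.33, 4.75 and 16.9 FPKM and at 0.953, 3.88 and 2.58 FPKM. Krt18 was above Krt8 in all 6 tumors, by 1.40-fold in SS18-SSX1 tumor 3 and by 3.23-fold to 6.07-fold in the other 5. SS18-SSX2 tumor 1 was lowest for both genes. Krt19, a keratin of glandular and simple epithelia, was at 0.0405, 1.10 and 2.27 FPKM and at 0.0371, 1.41 and 0.788 FPKM. In tumor 1 of each genotype the Krt19 value amounted to 1 read. SS18-SSX1 tumor 1, the tumor with the most Epcam, therefore had almost no Krt19 and the second lowest Krt8. Krt5, a keratin of basal cells, was at 0, 0.365 and 0.0781 FPKM and at 0, 1.13 and 0.0318 FPKM, and passed 1 FPKM only in SS18-SSX2 tumor 2. Krt15, a further basal keratin outside the 37, was at 0.510, 2.88 and 19.3 FPKM and at 0.312, 2.72 and 0.907 FPKM. Like Krt8, Krt15 was highest in SS18-SSX1 tumor 3, and there it was above Krt8. Of 22 markers of skin keratinocytes 6 had values, and their mean log2(FPKM + 1) was 0.61 to 1.04 in the SS18-SSX1 tumors and 0.59 to 1.03 in the SS18-SSX2 tumors. Sbsn was at 2.082 to 2.884 FPKM in the 6 tumors and Sfn at 0.768 to 3.56 FPKM, levels like those of Cdh1 and Cldn7. Krt10 reached 1.84 FPKM and Krt1 0.594 FPKM at most, and Krt1 and Krt2 were at 0 in SS18-SSX1 tumor 3. The part of skin cells in the epithelial values was not tested.

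Tight junction genes ran from traces to over 10 FPKM. Cldn7, a claudin that lines many epithelia (chromosome 11, 69964779 to 69967885), was at 2.39, 2.69 and 2.17 FPKM in the SS18-SSX1 tumors and at 0.353, 1.55 and 0.679 FPKM in the SS18-SSX2 tumors. Cldn6, a claudin of embryonic epithelia (chromosome 17, 23679249 to 23682446), was at 2.29, 1.35 and 1.32 FPKM and at 0.320, 0.911 and 0.231 FPKM. For both claudins every SS18-SSX2 tumor was below every SS18-SSX1 tumor, and SS18-SSX2 tumor 2 was the closest to the SS18-SSX1 tumors. Groups that did not overlap in this direction were seen for 3.76% of all tested genes, and the limma adjusted p was 0.843 for Cldn7 and 0.923 for Cldn6. Cldn6 reached 1 FPKM in every SS18-SSX1 tumor and in no SS18-SSX2 tumor, so it passed the filter only through SS18-SSX1. These are low levels: the Cldn7 values rest on 62, 72 and 74 reads and on 10, 22 and 19 reads. Tjp3, the scaffold protein ZO-3 (chromosome 10, 81273207 to 81291581), was at 11.8, 2.498 and 5.16 FPKM and at 0.432, 5.45 and 0.806 FPKM. It spanned 27.3-fold from SS18-SSX1 tumor 1 to SS18-SSX2 tumor 1, and SS18-SSX2 tumor 2 lay within the SS18-SSX1 range. An exon of Tjp3 overlaps the protein-coding gene Apba3 on the opposite strand, and the sources used here do not say whether reads were counted by strand. Lsr, a receptor that marks the corners where 3 cells meet (chromosome 7, 30957770 to 30973464), was at 14.3, 2.23 and 12.0 FPKM and at 4.04, 13.6 and 4.59 FPKM, with 1 tumor of SS18-SSX2 at the level of the SS18-SSX1 tumors 1 and 3.

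The other tight junction genes were near or under 1 FPKM in several tumors. Cldn3, a sealing claudin, was at 2.79, 5.75 and 0.316 FPKM and at 0.545, 1.96 and 2.32 FPKM, with the highest and the lowest value in the same genotype. Ocln, which encodes occludin, was at 2.40, 0.688 and 0.392 FPKM and at 0.326, 1.92 and 0.280 FPKM. The 2 tumors above 1 FPKM for Ocln were those with the highest epithelial level. Marveld2, the tricellular junction protein tricellulin, was at 1.42, 0.258 and 1.21 FPKM and at 1.08, 0.365 and 0.8855 FPKM, lowest in the muscle-rich tumors. Marveld3, a relative of occludin, was at 0.640, 0.376 and 0.920 FPKM and at 0.147, 1.46 and 0.0636 FPKM. Cldn1, a claudin of the epidermal barrier, was at 0.0231, 0.895 and 0.351 FPKM and at 0.424, 1.14 and 0.0858 FPKM. Marveld3 and Cldn1 each passed 1 FPKM in SS18-SSX2 tumor 2 only.

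The 4 desmosome genes were all highest in SS18-SSX2 tumor 2. Jup, which encodes plakoglobin and serves adherens junctions as well, was the steadiest member at 18.3, 18.1 and 11.9 FPKM and at 13.1, 18.4 and 17.2 FPKM, a span of 1.54-fold. Dsp, which encodes desmoplakin, the link to keratin filaments, was at 2.25, 5.52 and 1.88 FPKM and at 3.64, 10.2 and 4.41 FPKM. Dsp was highest in the muscle-rich tumor of each genotype. Pkp2, a plakophilin, was at 0.420, 2.18 and 1.74 FPKM and at 2.26, 3.12 and 2.26 FPKM, with every SS18-SSX2 tumor above every SS18-SSX1 tumor by a gap that was small beside the range. Desmoplakin and plakophilin-2 also join muscle cells of the heart and are not limited to epithelia. Pkp3, a plakophilin found mainly in epithelia, stayed between 0.0381 and 0.797 FPKM.

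**Figure D2:**
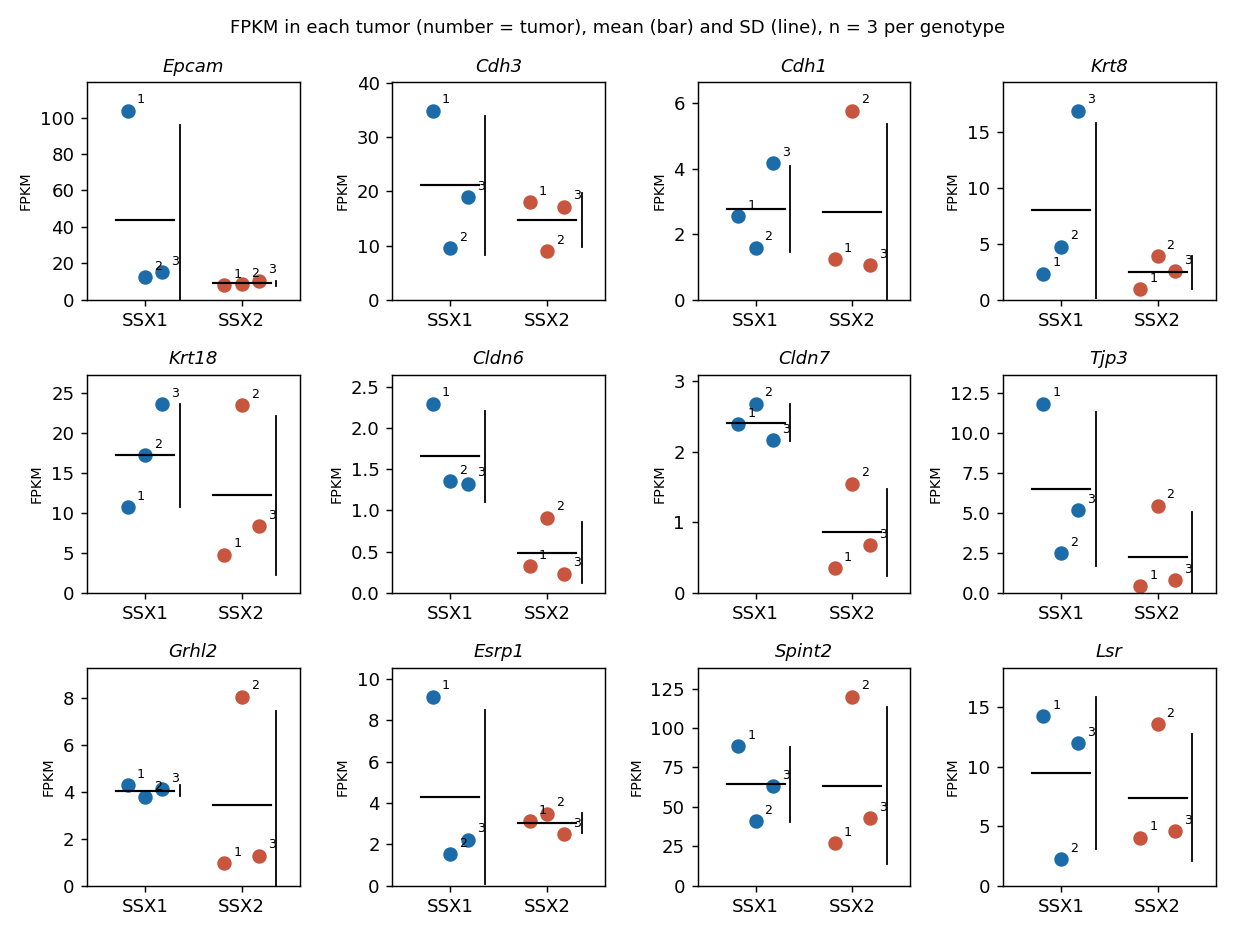
FPKM of selected epithelial genes in single tumors, on a separate linear axis for each gene. Points are tumors, numbered within each genotype (n = 3 each), the horizontal bar is the mean, and the vertical line spans 1 SD to each side, cut at 0 where it would pass below. A single SS18-SSX1 tumor at 104 FPKM sets the mean of Epcam, while for Cldn7 the SS18-SSX1 points lie close together above all SS18-SSX2 points.

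The regulators of epithelial identity among the 33 genes were all under 10 FPKM. Grhl2, a Grainyhead-like factor that activates junction genes (chromosome 15, 37233036 to 37363569), was at 4.27, 3.77 and 4.11 FPKM in the SS18-SSX1 tumors and at 0.963, 8.05 and 1.28 FPKM in the SS18-SSX2 tumors. The SS18-SSX1 tumors were nearly equal for Grhl2, and the SS18-SSX2 tumors lay on both sides of them, with an 8.37-fold span. Grhl1, its relative, was at 6.12, 0.934 and 1.19 FPKM and at 2.89, 2.47 and 2.55 FPKM, so here the SS18-SSX2 tumors were the even group and SS18-SSX1 tumor 1 stood 2.12-fold above the next. Grhl3, another Grainyhead-like factor, lies outside the 37 and was at 9.48, 6.62 and 4.35 FPKM and at 7.75, 17.5 and 8.57 FPKM. It was 1.06-fold to 8.05-fold above Grhl2 in every tumor. Esrp1, which directs epithelial splicing, was at 9.15, 1.52 and 2.22 FPKM and at 3.11, 3.48 and 2.51 FPKM. Esrp2, with the same function, was at 2.94, 1.12 and 3.28 FPKM and at 1.73, 7.50 and 2.21 FPKM. The ratio of Esrp1 to Esrp2 peaked at 3.11 in SS18-SSX1 tumor 1, where Esrp1 was highest, and was least, at 0.465, in SS18-SSX2 tumor 2, where Esrp2 was highest. Esrp2 overlaps an exon of the protein-coding gene Nfatc3 on the opposite strand. Ovol2, a repressor of mesenchymal genes, was at 2.38, 0.241 and 1.62 FPKM and at 0.782, 3.05 and 1.45 FPKM, highest in the 2 tumors with the highest epithelial level. Ovol1 and Elf3, 2 further epithelial transcription factors, stayed under 1 FPKM in all 6 tumors, with Ovol1 between 0 and 0.331 FPKM and Elf3 between 0.206 and 0.549 FPKM.

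The membrane protease inhibitor Spint2 was the most abundant of the 33 genes in 5 of 6 tumors. Spint2 (chromosome 7, 29256323 to 29281912) was at 88.5, 41.0 and 63.2 FPKM and at 26.8, 120.0 and 43.1 FPKM, and was exceeded only by Epcam in SS18-SSX1 tumor 1. Spint1, its relative, was at 9.96, 3.15 and 3.09 FPKM and at 1.32, 8.48 and 2.24 FPKM. Spint2 was 8.89-fold to 20.5-fold above Spint1 in every tumor, and both genes had SS18-SSX2 tumor 1 as their lowest. St14, which encodes the protease matriptase that the 2 inhibitors restrain, was at 17.1, 3.16 and 2.76 FPKM and at 4.66, 7.68 and 5.90 FPKM. Prss8, the protease prostasin that acts with matriptase, was at 7.22, 3.96 and 4.86 FPKM and at 2.64, 8.15 and 2.48 FPKM. Prss8 overlaps an exon of the protein-coding gene Kat8 on the opposite strand. The ratio of St14 to Spint1 was 3.54 and 2.64 in SS18-SSX2 tumors 1 and 3 and between 0.895 and 1.72 in the other 4 tumors. Rab25, a small GTPase of epithelial membrane trafficking, was at 2.74, 0.781 and 2.79 FPKM and at 0.247, 0.656 and 0.874 FPKM. Rab25 passed 1 FPKM in SS18-SSX1 tumors 1 and 3 only, too few tumors for the filter.

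Most of the highest values came from a pair of tumors. SS18-SSX2 tumor 2 was the highest of the 6 for 16 of the 33 genes (48.5%) and SS18-SSX1 tumor 1 for 11 (33.3%), while those tumors were the highest for 17.2% and 20.0% of all tested genes. SS18-SSX2 tumors 1 and 3 were the highest for 0 of the 33 genes, and SS18-SSX2 tumor 1 was the lowest for 13 (39.4%, against 15.2% of all tested genes). The order of the leading pair depended on scaling: after rescaling to TPM, which fixes the sum of all levels in a tumor, SS18-SSX1 tumor 1 was the highest for 18 genes and SS18-SSX2 tumor 2 for 8, against 31.2% and 5.76% of all tested genes. SS18-SSX2 tumors 1 and 3 were then the highest for 2 and 1 genes. The 11 genes highest in SS18-SSX1 tumor 1 were Cdh3, Epcam, Cldn6, Ocln, Marveld2, Tjp3, Lsr, Esrp1, Grhl1, St14 and Spint1, none of them a keratin or a desmosome gene. SS18-SSX2 tumors 1 and 3 were both below the other 4 tumors for 10 of the 33 genes (30.3%), against 9.08% of all tested genes. The 10 were Cldn6, Cldn7, Tjp3, Ocln, Marveld3, Cdh1, Krt18, Grhl2, Prss8 and Spint1. The 33 genes include 8 that did not pass the filter on low values, while the shares of all tested genes cover filtered genes only. The counts and shares are therefore not from like sets. Of the 8, Krt5, Cldn1, Marveld3, Pkp3, Ovol1 and Elf3 were highest in SS18-SSX2 tumor 2, all at low levels. These counts were made after the values were seen and carry no test. Macrophage genes moved with them in part: their mean log2(FPKM + 1) over 10 of 10 genes was highest in SS18-SSX2 tumor 2 (4.88), but lowest in SS18-SSX1 tumor 1 (2.23), and between 3.28 and 4.34 in the rest. Endothelial genes, all 10 of them measured, averaged 3.49, 1.90 and 2.75, then 3.56, 2.14 and 3.44. The part of these cells in the epithelial values was not tested.

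The question the design allows is whether the genotypes differ. With limma on log2(FPKM + 1), SS18-SSX2 against SS18-SSX1, 0 of the 25 tested epithelial genes passed a Benjamini-Hochberg adjusted p of 0.05, with a smallest adjusted p of 0.843. Over all 13873 tested genes 9 passed (0.0649%). At an unadjusted p under 0.05, limma gave 2 of the 25, Cldn7 and Cldn6, both lower in SS18-SSX2. Cldn6 reached 1 FPKM in the SS18-SSX1 tumors only, so it entered the test through the group where it was high. Its result is a description only. Counted in either direction, 0 epithelial genes had an unadjusted p under 0.05 when tumor 1 or tumor 3 of SS18-SSX2 was left out. Leaving out SS18-SSX2 tumor 2 gave 5 of 24. Leaving out SS18-SSX1 tumor 1 gave 4 of 23, SS18-SSX1 tumor 2 gave 3 of 23, SS18-SSX1 tumor 3 gave 2 of 22 and both muscle-rich tumors 8 of 19. Of these, Grhl1 and St14 without SS18-SSX1 tumor 1 and Dsp without SS18-SSX1 tumor 2 were higher in SS18-SSX2. Shares of all genes in those settings were not worked out, so the counts are not read as a result. With all 6 tumors, the background at that threshold was 4.97% of all tested genes in either direction and 1.71% in the lower direction. Of the 25 genes, 17 had a lower and 8 a higher mean log2(FPKM + 1) in SS18-SSX2, against 48.85% of all tested genes lower. The median log2 fold change was -0.23, against 0.01 over all tested genes, whose middle range (5th to 95th percentile) was -0.66 to 0.85. Without SS18-SSX1 tumor 1 the median turned to 0.03, with 10 of 23 genes lower. Leaving out SS18-SSX2 tumor 1 gave -0.002, with 12 of 24 lower, and leaving out SS18-SSX2 tumor 3 gave -0.105. Leaving out SS18-SSX1 tumor 2 gave -0.509, and leaving out SS18-SSX2 tumor 2 gave -0.607, with 19 of 24 lower. Without both muscle-rich tumors it was -0.59, with 16 of 19 lower. Leaving out a single tumor left between 1 and 3 called genes over the whole table, and 0 of them epithelial.

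For Epcam, the means were 43.8 ± 52.0 FPKM and 9.09 ± 1.28 FPKM (SD, n = 3 each), a log2 fold change of -1.496 with a standard error of 0.72 and a limma adjusted p of 0.997. Without SS18-SSX1 tumor 1 the Epcam change was -0.55. For Cldn7, means of 2.41 ± 0.261 and 0.861 ± 0.619 FPKM gave a change of -0.92 with a standard error of 0.33 and a limma adjusted p of 0.843. Cldn6, which passed the filter only through the SS18-SSX1 tumors, had means of 1.66 ± 0.552 and 0.488 ± 0.370 FPKM. Its change was -0.84 with a standard error of 0.33 and a limma adjusted p of 0.923. These 3 were the tested epithelial genes whose groups did not overlap with SS18-SSX2 lower, against 3.76% of all tested genes. Pkp2 was the only one whose groups did not overlap with SS18-SSX2 higher, against 4.97% of all tested genes, and either kind of separation was seen for 8.72%. The Pkp2 means were 1.45 ± 0.917 and 2.55 ± 0.499 FPKM, a change of 0.61 with a standard error of 0.38 and a limma adjusted p of 0.997. Without SS18-SSX1 tumor 1 the Pkp2 change was 0.26.

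By role, the 6 tested tight junction genes all had a lower mean in SS18-SSX2, with a median log2 change of -0.61, and 0 of the 6 were called. The filter admitted Cldn6, 1 of the 6, only through the SS18-SSX1 tumors, so the count and median that include it are descriptions only. Tjp3 had the largest difference among the 6, at -1.35 with a standard error of 0.67. For Tjp3, leaving out SS18-SSX1 tumor 1 gave -0.86, leaving out SS18-SSX2 tumor 2 -2.02. Cldn3 turned to 0.15 without SS18-SSX1 tumor 2, and Marveld2 to 0.07 without SS18-SSX2 tumor 2. Lsr turned to 0.20 without SS18-SSX1 tumor 1, to 0.08 without SS18-SSX1 tumor 3 and to 0.07 without SS18-SSX2 tumor 1. The 3 tested keratins also had lower means (median -0.67). Krt8 was at -1.11 with a standard error of 0.63, at -0.43 without SS18-SSX1 tumor 3, while leaving out SS18-SSX2 tumor 1 gave -0.74. Dsp, highest in the muscle-rich tumors, was at 0.74 with a standard error of 0.46, at 0.71 without both of them and at 0.35 without SS18-SSX2 tumor 2 alone. With weights per tumor it was 0.33. The 3 tested desmosome genes had higher means (median 0.61), although Jup, at 0.02, turned to -0.17 without SS18-SSX1 tumor 3, to -0.07 without SS18-SSX2 tumor 2 and to -0.03 without SS18-SSX2 tumor 3. Regulators were split, 2 lower and 3 higher (median 0.22), with Grhl2 at -0.56 and a standard error of 0.56. The Grhl2 change was -1.26 without SS18-SSX2 tumor 2, while leaving out tumor 1 of that genotype gave -0.15 and leaving out tumor 3 gave -0.26. Of the 4 adhesion genes 3 were lower, and of the 4 protease and inhibitor genes 3 were lower, with a median of -0.29 for each role. In limma 0 genes of any role passed the adjusted threshold. With no tumor left out, Cldn7 had an unadjusted p under 0.05 in limma, as did Cldn6, whose result is a description only.

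**Figure D3:**
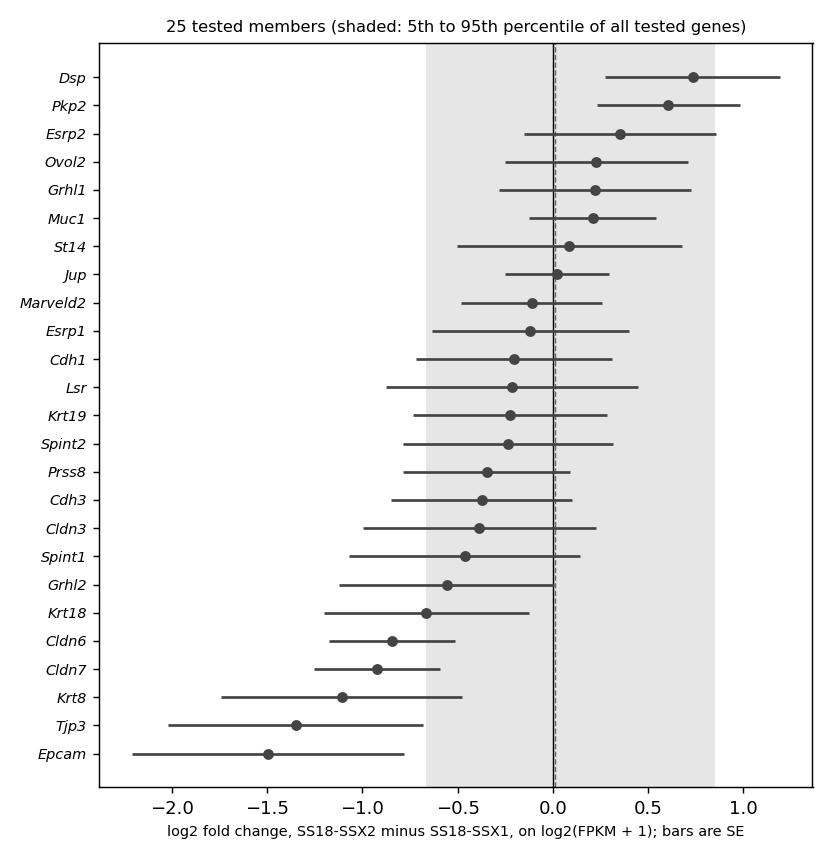
Difference between genotypes (SS18-SSX2 minus SS18-SSX1) in log2(FPKM + 1) for the 25 tested epithelial genes, in order of size. Points are log2 fold changes, horizontal lines 1 standard error to each side, the shaded band the 5th to 95th percentile of all tested genes (-0.66 to 0.85) and the dashed line their median. The points of Epcam, Tjp3, Krt8, Cldn7 and Cldn6 lie below the band, and that of Krt18 (-0.67) lies at its lower edge. The lines of Krt8, Krt18, Cldn7 and Cldn6 reach into the band, and 0 genes passed the adjusted threshold.

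A wider list of epithelial genes was evenly split by count. Of 60 further genes of junctions, keratins and epithelial regulators, 41 had values and 26 were tested, with 13 higher and 13 lower in SS18-SSX2 and a median log2 change of 0.01. In limma 0 of the 26 were called, and 1 (Pkp4, a plakophilin-related protein of cell junctions) had an unadjusted p under 0.05, higher in SS18-SSX2. Over all tested genes, 4.97% had an unadjusted p under 0.05 in limma. Groups did not overlap for 4 of the 26 genes in the higher direction and 1 in the lower, against 4.97% and 3.76% of all tested genes. The most abundant genes of the list are widely expressed partners of cadherins and tight junctions. Ctnnb1, which encodes beta-catenin, ran from 178 to 251 FPKM, Ctnna1 from 61.2 to 94.7 FPKM and Ctnnd1 from 32.2 to 51.6 FPKM. F11r, a junctional adhesion molecule, ran from 20.3 to 42.0 FPKM and Tjp1 (ZO-1) from 21.9 to 45.2 FPKM. ZO-1 was thus above ZO-3 in every tumor and varied less. The most variable genes of the list, beside Krt15, were Foxa1, Cgnl1 and Nectin1. Foxa1, a transcription factor of glandular epithelia, was at 0.0707, 1.30 and 8.83 FPKM and at 3.67, 9.64 and 2.97 FPKM. SS18-SSX1 tumor 1, second highest in epithelial level, was thus the lowest for Foxa1. Cgnl1, which encodes paracingulin, was at 5.72, 37.2 and 4.35 FPKM and at 16.3, 7.16 and 20.5 FPKM. Nectin1, an adhesion molecule, was at 27.1, 14.1 and 7.88 FPKM and at 28.1, 17.95 and 48.3 FPKM.

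Of 10 mesenchymal genes, Vim and Twist1 were abundant in all 6 tumors, and others were low in some. Vim, which encodes the filament protein vimentin, was at 77.2, 250 and 116 FPKM and at 238, 424 and 371 FPKM, and exceeded Krt18 by 4.90-fold to 49.9-fold. Cdh11, a mesenchymal cadherin, was at 10.1, 39.1 and 42.1 FPKM and at 132, 46.0 and 97.8 FPKM. Its ratio to Cdh1 was 106 and 93.1 in SS18-SSX2 tumors 1 and 3, the tumors with the least Cdh1, and between 3.93 and 24.6 in the other 4. Cdh2, which encodes N-cadherin, was at 16.8, 8.12 and 4.88 FPKM and at 16.9, 1.497 and 12.4 FPKM. SS18-SSX2 tumor 2 was the only tumor with less Cdh2 than Cdh1, at a ratio of 0.260. Among repressors of epithelial genes, Snai2 was at 9.84, 14.8 and 11.4 FPKM and at 5.02, 2.10 and 5.32 FPKM, with every SS18-SSX2 tumor lower (log2 change -1.39, standard error 0.35, limma adjusted p 0.592). Zeb1 was at 10.2, 8.85 and 7.18 FPKM and at 14.1, 5.59 and 10.6 FPKM, lowest in SS18-SSX2 tumor 2. Snai1 ran from 0.105 to 4.08 FPKM and Zeb2 from 1.58 to 4.35 FPKM, with 1.185 FPKM of Snai1 and 4.15 FPKM of Zeb2 in SS18-SSX2 tumor 2. Twist1 ran from 46.7 to 96.5 FPKM, Twist2 from 1.36 to 40.6 FPKM and Fn1, which encodes fibronectin, from 17.2 to 302 FPKM. In SS18-SSX2 tumor 2 these genes were at 90.2, 4.23 and 27.3 FPKM, so Zeb2 and Twist1 were not low there as Zeb1 was. In limma 0 of the 10 mesenchymal genes were called, and 3 had an unadjusted p under 0.05, against 4.97% of all tested genes. Of the 3, Cdh11 and Vim were higher in SS18-SSX2 and Snai2 lower.

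**Figure D4:**
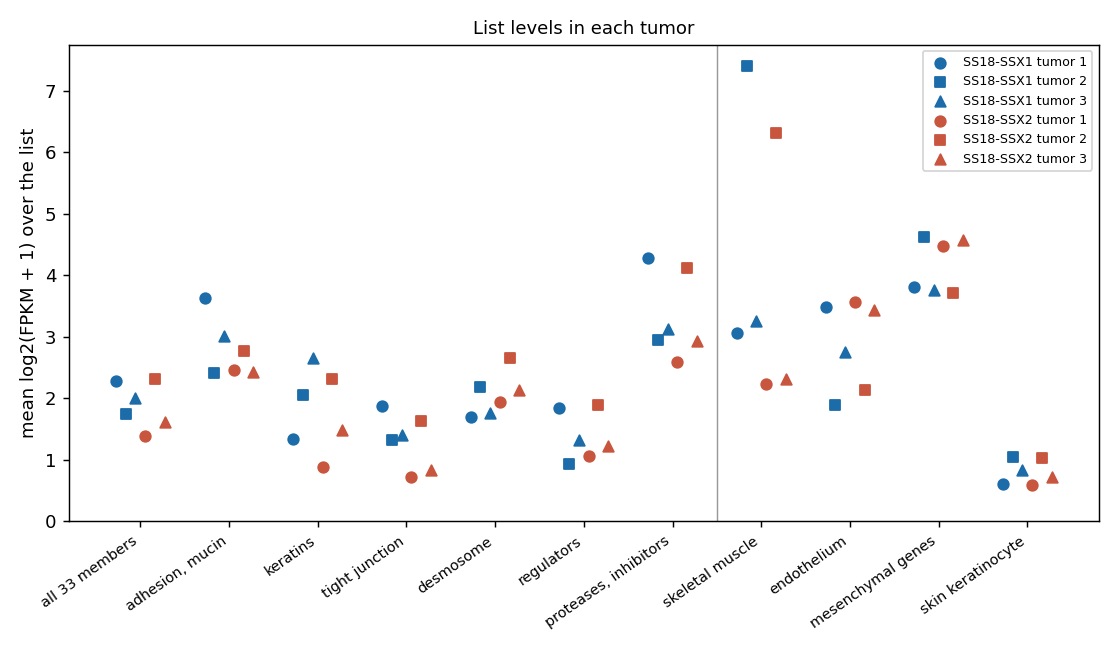
Mean log2(FPKM + 1) of the epithelial genes and of marker lists in each tumor. The horizontal axis gives the lists, epithelial ones by role to the left of the line, and each point is 1 tumor, with color for genotype and shape for tumor number. The muscle list separates tumor 2 of each genotype from the rest, while the epithelial level is highest in SS18-SSX2 tumor 2 and SS18-SSX1 tumor 1.

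Beyond the epithelial genes, some genes stood far higher in 1 of the 2 tumors with the highest epithelial level than in any other tumor. In SS18-SSX2 tumor 2 the 5 with the widest gap were Eomes, a T-box transcription factor (9.81 FPKM, against 0.165 or less elsewhere), Fndc1 (70.7 FPKM), Ahsg, which encodes the plasma protein fetuin-A (10.1 FPKM), Pcdh20, a protocadherin (28.3 FPKM), and Jchain, which joins antibody chains (47.7 FPKM). Among the next 10 were the B and plasma cell genes Ms4a1, Mzb1 and Cd79a, with Ms4a1 at 5.41 FPKM. The part of those cells in the epithelial values of that tumor was not tested. Wfdc2, a secreted protein of glandular epithelia, was also among them, at 82.8 FPKM against 0.527 to 18.95. In SS18-SSX1 tumor 1 the 5 with the widest gap were Grp, which encodes gastrin-releasing peptide (293 FPKM, against 0.130 to 1.45 in the others), Gm10260 (47.9 FPKM), Masp1, a complement protease (41.4 FPKM), Col6a6, a collagen gene (34.4 FPKM), and Gpr83, a receptor gene (11.4 FPKM). Wfdc2 was lowest in SS18-SSX1 tumor 1, the tumor with the most Epcam.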

How the data were processed

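The authors deposited 1 table of FPKM values with 1 column per tumor. Per the submitters' processing notes, the tools include Novoalign 2.08.03 and the build is mm10. Counting tool, gene models and strand handling: not given in the sources used here. Gene IDs were matched to GENCODE mouse release 21 (GRCm38, which mm10 also names). Of 33 epithelial genes, 13 have exons that overlap another gene, all on the opposite strand, so reads of the pair may be mixed. Krt8 has an annotated processed copy with which it may share reads.

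FPKM were tested as log2(FPKM + 1), so fold changes of low genes are understated. The 13873 genes that reached 1 FPKM in 3 or more tumors entered limma 3.58.1 in R 4.3.3 (lmFit, eBayes with trend), as a two-sided test, and p-values were adjusted over all of them by Benjamini-Hochberg. The code was tested on simulated data. Read numbers were recovered from the steps of low values, and 77.1% to 79.5% of those values per tumor lay within 0.02 of a whole number. Of the 33 genes, 16 used their annotated exon length and 17 the smallest length that gave whole reads, which can miss a common factor. Promoter windows were RefSeq's. Python 3.11.15 was used with numpy 2.4.6, pandas 2.3.3 and, for figures, matplotlib 3.10.9.

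Genes named are all 33, by tumor where the highest FPKM is at least 1. From the wider epithelial list they are 6 by highest mean and 4 by widest range, with all mesenchymal genes; 1 of these is not reported here. The 15 protein-coding genes with the widest gap in each of the 2 tumors of highest level were also taken, and the text gives the first 5 of each. Pkp4, Grhl3, Wfdc2, Ms4a1, Mzb1 and Cd79a were picked out after their values were seen. The members and lists were chosen with earlier results of these data known.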

Additional observations from a re-analysis of the deposited data

How the results depend on the processing

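In 18 other settings of the limma fit, 0 epithelial genes were called, with a smallest adjusted p of 0.267 (Cldn7, weights per tumor). Of the 25 tested genes, 14 changed direction in at least 1 setting and 11 in none of those in which they were tested (13 for Cldn6, 16 to 18 for the others), though Muc1 was at 0 with weights per tumor. Cldn6 did not pass an unadjusted p of 0.05 with the replicate block. Genes called over the whole table were 9, and 5 with a pseudocount of 0.1, 16 with weights per tumor, 4 with the replicate block, 4 without both muscle-rich tumors and 1 to 3 with a tumor left out. The median change of the epithelial genes, -0.226, ran from -0.607 to 0.028 with a tumor left out, and was 0.028 without SS18-SSX1 tumor 1. Numbers shared between genotypes matched the tumors in part: deviations correlated at 0.382, 0.307 and -0.281 for numbers 1, 2 and 3. SS18-SSX1 tumors 1 and 2 correlated best with the SS18-SSX2 tumor of the same number, and SS18-SSX1 tumor 3 with SS18-SSX2 tumor 2 (0.151). The deposited names of tumors 2 and 3 begin with A and B in both genotypes, and what the letters mean is not stated. The mean epithelial level became 1.53, 0.98 and 1.30, then 0.27, 1.82 and 0.68, with a pseudocount of 0.1. It was 1.98, 1.41 and 1.69 in the SS18-SSX1 tumors with a pseudocount of 0.5. After rescaling to TPM it was 3.63, 2.63 and 2.98, then 2.56, 3.22 and 2.67. Under TPM, upper quartile and quantile scaling SS18-SSX1 tumor 1 had the highest level, and SS18-SSX2 tumor 1 the lowest in each. With weights per tumor, changes turned to 0.05 for Cdh3, 0.14 for Marveld2 and -0.01 for Jup. Without both muscle-rich tumors they turned to -0.47 for Esrp2, -0.51 for Ovol2, -0.09 for Grhl1 and -0.40 for St14. With a tumor left out, the changes that turned ran from -0.75 to 0.11 for Cdh1, -0.82 to 0.06 for Cdh3, -0.67 to 0.11 for Krt19, -1.03 to 0.15 for Cldn3, -0.40 to 0.07 for Marveld2, -0.92 to 0.20 for Lsr and -0.17 to 0.16 for Jup. They ran from -0.51 to 0.49 for Esrp1, -0.15 to 0.66 for Esrp2, -0.19 to 0.53 for Ovol2, -0.12 to 0.82 for Grhl1, -0.31 to 0.82 for St14, -1.06 to 0.01 for Spint1 and -0.83 to 0.23 for Spint2. The cause of these changes was not tested. The tumor counts under other scalings and the counts of genes with a lower mean were chosen after seeing the data. Depth limits the low genes: 4 of 33 had under 30 reads in every tumor.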
